A study of Mus musculus with 13 samples.

Results

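The genes described here encode the nuclear subunits of respiratory complexes II, III, IV and V, together with cytochrome c. They were taken from the gene entries of the deposited count table by symbol (Sdha to Sdhd, Uqcr, Cyc1, Cycs, the Cox subunit families and Atp5). The rule matched 51 symbols of 36172 gene entries. Atp5l-ps1 and Atp5l2, both pseudogenes in RefSeq's gene table and without counts in any library, were left out, which left 49 members. Complex II had 4 members, complex III had 9, complex IV had 18, complex V had 17, and cytochrome c was a single gene. The filter on low counts kept 47 members for testing. Cox7b2, a testis isoform, stayed below 0.5 CPM (counts scaled to library totals) in every library, and Cox8c, another testis isoform, had no counts in any library. The rule also takes in 2 genes whose products are not structural subunits in the usual sense. Atp5s encodes coupling factor B, and Atp5sl, named after Atp5s, encodes a factor for the assembly of complex I.

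The study sequenced polyadenylated RNA of left ventricle outside the ischaemic zone in C57BL/6JO1aHsd mice that were 8 to 10 weeks of age when treatment started. The MI+FG-3149 group (n = 5) had a permanent ligation of the left anterior descending coronary artery, which causes a myocardial infarction (MI), and received FG-3149, a monoclonal antibody against connective tissue growth factor, at 10 mg/kg. The MI+IgG group (n = 5) had the same ligation and received a control IgG at 10 mg/kg. The Sham group (n = 3) had sham surgery and no treatment, so the infarction and the injected IgG cannot be told apart in a contrast with it. All groups carry the time point 1W+6W, which the labels do not explain further. The design text speaks of animals, and each library was taken as 1 animal; any pooling is not stated.

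The respiratory chain sits in the inner mitochondrial membrane. Complex II (succinate dehydrogenase) and complex I feed electrons to ubiquinone, complex III passes them to cytochrome c, complex IV (cytochrome c oxidase) hands them to oxygen, and complex V (ATP synthase) makes ATP from the resulting proton gradient. Heart muscle is rich in mitochondria and covers nearly all of its ATP need in this way. Most subunits are encoded in the nucleus, and several subunits of complex IV exist as a muscle isoform and a widely expressed isoform. The count table lists 0 mitochondrially encoded genes, so those subunits were not analysed here.

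Library totals ran from 10954922 to 12794823 estimated counts in MI+FG-3149, from 13084735 to 17567238 in MI+IgG and from 12025880 to 14999813 in Sham. The members together held 4.17 to 4.51% of all counts in MI+FG-3149 hearts, 3.81 to 4.27% in MI+IgG hearts and 4.91 to 4.94% in Sham hearts, and the groups of infarcted hearts did not overlap with Sham. The libraries also differed by group in where reads fell along transcripts, and this touches the results below. Over the 45 members with a single transcript of at least 2 exons, the median share of counts in the first exon was 2.75 to 3.09% in MI+FG-3149 libraries, 0.592 to 1.54% in MI+IgG libraries and 0.707 to 0.859% in Sham libraries. Over 3311 genes with a mean count of at least 500, the same share was 1.89 to 2.24% in MI+FG-3149, 0.761 to 1.28% in MI+IgG and 0.613 to 0.725% in Sham. In both sets every MI+FG-3149 library lay above every other library. Rn45s, a ribosomal RNA precursor, took 0.199 to 2.86% of counts in MI+FG-3149, 0.673 to 1.94% in MI+IgG and 0.276 to 0.334% in Sham.

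**Figure D1:**
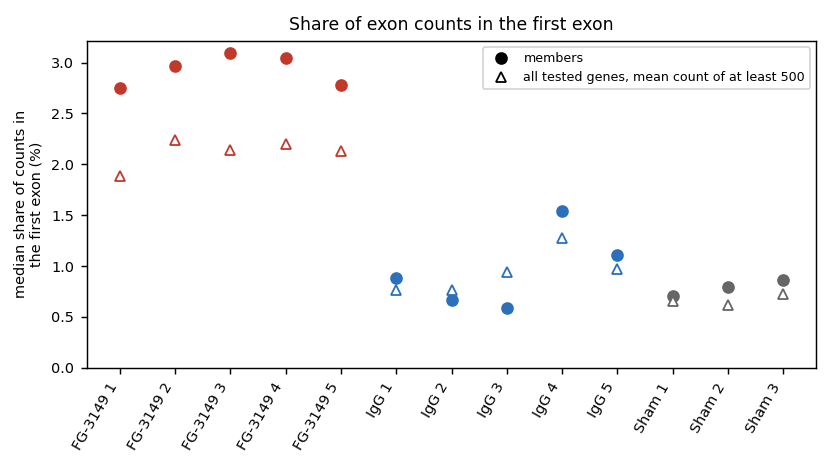
Share of exon counts that fell in the first exon (percent, y axis) in each of the 13 libraries (x axis), as the median over members (filled circles) and over all tested genes with a mean count of at least 500 (open triangles). Member values lie between 2.75 and 3.09% in the 5 MI+FG-3149 libraries, against at most 1.54% in MI+IgG and at most 0.859% in Sham.

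Cardiomyocyte markers were present at 92487 to 99915 summed CPM in MI+FG-3149, 88061 to 95788 CPM in MI+IgG and 99811 to 109231 CPM in Sham, which matches the labelled tissue. Of 14 such markers, 5 were lower and 3 higher in MI+FG-3149 than in Sham, and 5 were lower and 2 higher in MI+IgG than in Sham. Fibroblast markers summed to 4188 to 4822 CPM in MI+FG-3149, 4551 to 6612 CPM in MI+IgG and 2754 to 2929 CPM in Sham, with 11 of 12 higher in each group of infarcted hearts than in Sham. Macrophage markers summed to 517 to 824 CPM in MI+FG-3149, 479.7 to 743 CPM in MI+IgG and 354 to 361 CPM in Sham, with 10 of 11 higher in MI+FG-3149 than in Sham and 8 of 11 in MI+IgG. Of 10 endothelial markers 3 were lower and 1 higher in MI+FG-3149 than in Sham, and 2 were lower and 1 higher in MI+IgG; of 8 smooth muscle and pericyte markers 2 were lower and 0 higher in MI+FG-3149, and 1 was lower and 2 higher in MI+IgG. Of 13 tested clock genes, which follow the hour of sampling, 2 were lower and 3 higher in MI+FG-3149 than in Sham, and 3 were lower and 5 higher in MI+IgG. Arntl, a core transcription factor of the clock, had 13.8, 15.0, 18.5, 2.98 and 2.76 CPM in MI+FG-3149 hearts, 15.8, 15.3, 4.82, 3.12 and 2.46 CPM in MI+IgG hearts and 37.4, 31.9 and 31.7 CPM in Sham hearts. MI+FG-3149 replicates 4 and 5 and MI+IgG replicates 3 to 5 thus stood apart from the other infarcted hearts, and all infarcted hearts lay below Sham. Over all 13434 tested genes, 13.9% were lower and 15.6% higher in MI+FG-3149 than in Sham, and 15.9% and 17.8% in MI+IgG. No marker of these cell types in the table was at 0 in all libraries. Their part in the results on the members was not tested, and in bulk tissue fewer cells of a type and less RNA per cell cannot be told apart.

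Levels per transcript length (RPKM, which divides reads by transcript length and by the library total) spanned a wide range among the members. Atp5b, the catalytic beta subunit of ATP synthase, was highest at 3342 ± 54.9 in MI+FG-3149, 3219 ± 154 in MI+IgG, 3935 ± 23.5 in Sham (RPKM, mean ± SD). Atp5a1, the alpha subunit that alternates with it, followed at 2211 ± 88.4 in MI+FG-3149, 2115 ± 100.5 in MI+IgG, 2605 ± 21.5 in Sham. Cox4i1, the ubiquitous form of subunit 4 of complex IV, Atp5g3, a gene for the membrane ring of ATP synthase, and Cox6a2, the muscle form of subunit 6a, came next. Among tested members Cox6b2, a testis form of subunit 6b, was lowest at 2.29 ± 0.867 in MI+FG-3149, 1.57 ± 0.505 in MI+IgG, 3.6 ± 0.967 in Sham. These levels are given per length and can be set beside each other, whereas the CPM values below compare libraries within a gene.

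In both groups of infarcted hearts most members were lower than in Sham. In MI+FG-3149 against Sham, 26 of 47 tested members were lower and 2 were higher, where 13.9% of 13434 tested genes were lower and 15.6% were higher. The median log2 fold change of the members was -0.20, beside -0.001 over all tested genes. In MI+IgG against Sham, 37 of 47 were lower and 1 was higher, where 15.9% of all tested genes were lower and 17.8% higher, and the members' median was -0.29. Calls are edgeR's quasi-likelihood test with a Benjamini-Hochberg adjusted p under 0.05 over all tested genes, and values after ± for fold changes are standard errors. These contrasts share the 3 Sham hearts, so their likeness is not independent. In MI+FG-3149 hearts 25 members lay wholly below and 3 wholly above the Sham hearts, where 15.6% and 16.6% of tested genes did, and in MI+IgG hearts 42 lay wholly below and 1 wholly above, where 17.7% and 18.2% did. Exons were also counted by side of the transcript midpoint. With exons of the 3′ side alone, 29 of 46 members were lower and 2 higher in MI+FG-3149 against Sham (12.6% of 12854 genes lower, 14.4% higher), and 35 were lower and 1 higher in MI+IgG against Sham (15.1% of genes lower, 16.4% higher). With exons of the 5′ side alone, 15 of 47 were lower and 13 higher in MI+FG-3149 against Sham (11.4% of 11193 genes lower, 15% higher), and 29 were lower and 0 higher in MI+IgG against Sham (11.3% of genes lower, 12.4% higher). Of 39 first exons of members, 37 were higher in all MI+FG-3149 libraries than in all Sham libraries and 1 was lower, where 71.7% and 0.866% of genes were, and 0 were higher and 2 lower in MI+IgG than in Sham, where 16.7% and 1.89% were. Of 43 last exons, 1 was higher and 38 lower in MI+FG-3149 than in Sham, where 8.49% and 24.6% of genes were, and 1 was higher and 40 lower in MI+IgG, where 12.1% and 21% were. The direction in MI+FG-3149 against Sham thus differed between the ends of the transcripts. A fit with each library's median read position along transcripts as a covariate called 0 members lower in MI+FG-3149 against Sham and 1 in MI+IgG against Sham. It called 2 and 632 of all tested genes in these contrasts. Read position set all infarcted libraries apart from Sham, so this fit cannot separate it from the groups. With the trend of fold changes over GC content removed, the split of all tested genes in MI+IgG against Sham went to 3096 lower and 1809 higher, beside 2136 and 2393 without that step, and 42 members were then lower and 0 higher. Without the 5 infarcted hearts of lowest Arntl, 18 members were lower and 1 higher in MI+FG-3149 against Sham, and 28 were lower and 0 higher in MI+IgG against Sham, where 9.51% and 7.63% of tested genes were lower. Uqcrc1, Atp5e and Cox6a2 then no longer passed in MI+FG-3149 against Sham, at -0.20, -0.22 and -0.19 on the log2 scale.

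**Figure D2:**
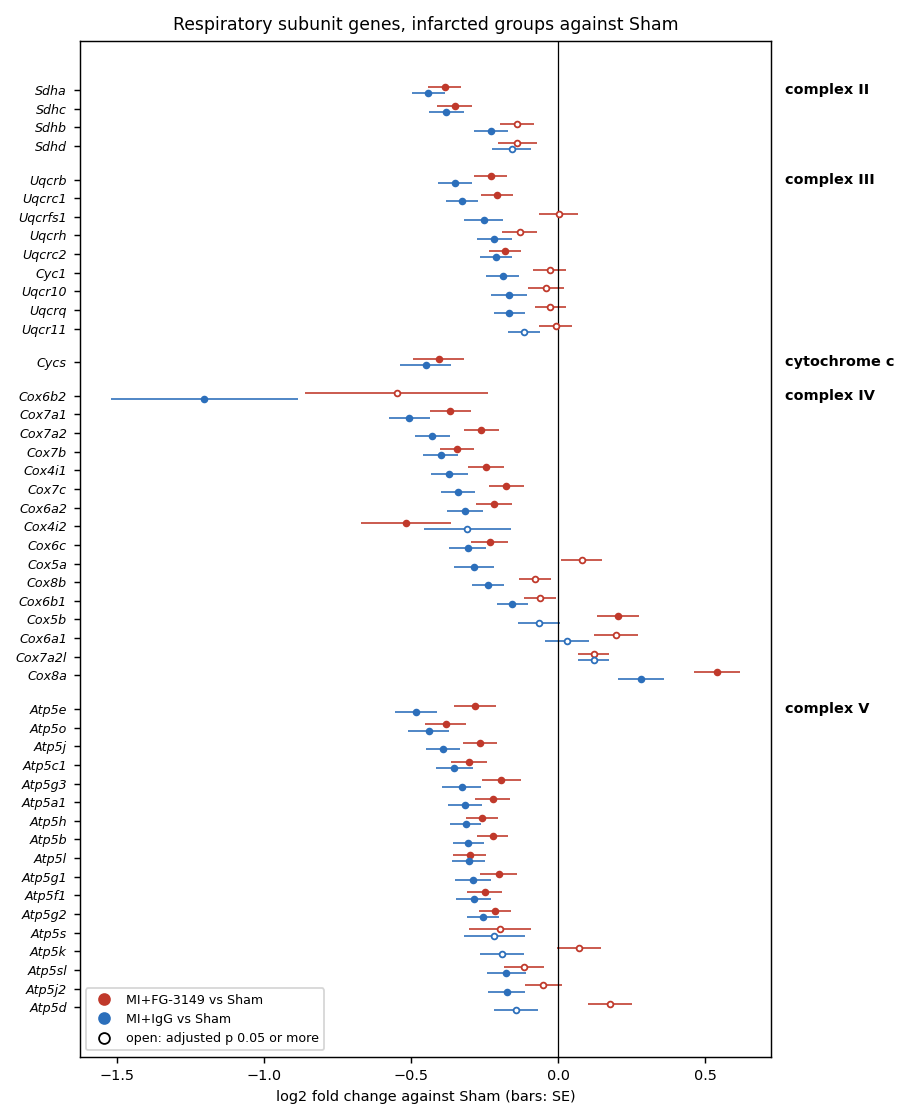
Log2 fold change (x axis, with SE) of the 47 tested members in MI+FG-3149 over Sham (red) and MI+IgG over Sham (blue), by complex; filled points passed an adjusted p of 0.05. Most points lie left of 0 (39 of 47 in MI+FG-3149, 44 of 47 in MI+IgG), and Cox8a lies farthest to the right.

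Promoters are shown for 4 members because these genes differ in direction or in isoform: Sdha fell in both contrasts with Sham, Cox6a1 and Cox8a are widely expressed isoforms, and Cox8b is a muscle isoform. The 250 bases before the annotated start are printed 5′ to 3′ on the gene's strand, from RefSeq on GRCm38.p6, and capitals mark matches to the NRF1 motif (GCGCANGCG) or the ETS motif (CCGGAAG) on either strand.
Sdha (chr13:74350241-74350490, GRCm38.p6, minus strand): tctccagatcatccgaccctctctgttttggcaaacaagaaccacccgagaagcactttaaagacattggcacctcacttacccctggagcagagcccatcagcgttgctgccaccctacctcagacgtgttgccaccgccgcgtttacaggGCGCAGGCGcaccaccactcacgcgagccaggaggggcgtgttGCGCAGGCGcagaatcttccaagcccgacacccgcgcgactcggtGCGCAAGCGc
Cox6a1 (chr5:115348959-115349208, GRCm38.p6, minus strand): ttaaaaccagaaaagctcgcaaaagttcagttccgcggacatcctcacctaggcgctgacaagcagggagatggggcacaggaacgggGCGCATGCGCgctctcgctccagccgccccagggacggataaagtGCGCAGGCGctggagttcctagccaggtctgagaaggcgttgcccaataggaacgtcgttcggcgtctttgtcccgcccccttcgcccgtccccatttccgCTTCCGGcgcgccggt
Cox8a (chr19:7217617-7217866, GRCm38.p6, minus strand): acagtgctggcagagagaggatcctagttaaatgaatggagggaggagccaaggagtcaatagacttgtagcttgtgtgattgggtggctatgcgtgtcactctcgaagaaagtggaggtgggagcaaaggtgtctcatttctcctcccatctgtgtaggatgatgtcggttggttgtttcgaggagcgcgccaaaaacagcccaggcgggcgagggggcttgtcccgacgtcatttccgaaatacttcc
Cox8b (chr7:140900447-140900696, GRCm38.p6, minus strand): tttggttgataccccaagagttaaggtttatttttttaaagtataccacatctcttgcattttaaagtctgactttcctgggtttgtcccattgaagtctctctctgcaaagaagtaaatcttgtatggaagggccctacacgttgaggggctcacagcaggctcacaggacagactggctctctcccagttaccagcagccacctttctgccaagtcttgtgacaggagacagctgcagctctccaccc
Sdha has 3 NRF1 matches and Cox6a1 has 3 NRF1 matches, of which 2 share a stretch read on either strand, and 1 ETS match, while the windows of Cox8a and Cox8b hold no match to these letters.

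A window was available for 38 of the 49 members. Where a member had several, the one nearest the start of its gene entry was taken. In the shares over genes the first listed window was used, so the choice of window differed. NRF1 is a transcription factor for nuclear genes of the respiratory chain, and its motif occurred in 8 of the 38 windows (21.1%), beside 10.8% of 10647 windows of tested genes and 5.33% of 27025 windows of all genes. The ETS motif, bound by GABPA among others, occurred in 8 member windows (21.1%), beside 13.1% of tested genes and 7.05% of all genes. The motif of the oestrogen-related receptors (TCAAGGTCA) occurred in 1 member window, that of Atp5g3 (2.63%, beside 0.254% of tested genes), and the YY1 motif (AAGATGGC) in 1, that of Atp5sl (2.63%, beside 1.96%). No printed matches of different motifs overlapped. Members with an NRF1 match were Sdha, Sdhd, Cox6a1, Cycs, Atp5g2, Atp5h, Atp5k and Atp5l, of which Sdha, Cycs, Atp5g2, Atp5h and Atp5l fell in both contrasts with Sham and the other 3 passed in neither. Over all 47 tested members, 55.3% were lower in MI+FG-3149 than in Sham and 78.7% in MI+IgG. These matches are a description of the letters in the windows, and a link with the direction of change was not tested.

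Of the 4 members of complex II, 2 fell in MI+FG-3149 against Sham and 3 in MI+IgG against Sham. Of all tested genes 13.9% and 15.9% did, and the same shares stand beside the other classes below. Sdha, the flavoprotein that oxidises succinate (Entrez 66945, chr13:74322255-74350240 of mm10, minus strand), stood at 1844, 1752, 1774, 1767 and 1773 CPM in MI+FG-3149 hearts, 1921, 1636, 1757, 1615 and 1642 CPM in MI+IgG hearts and 2348, 2379 and 2262 CPM in Sham hearts. Every infarcted heart lay below every Sham heart. The log2 fold change of Sdha was -0.39 ± 0.06 in MI+FG-3149 over Sham (edgeR adjusted p = 8.72e-05) and -0.44 ± 0.06 in MI+IgG over Sham (edgeR adjusted p = 1.38e-05). Sdhc, a membrane anchor that binds ubiquinone, had 445, 423, 485, 443 and 420.2 CPM in MI+FG-3149 hearts, 484, 397, 428, 427 and 438 CPM in MI+IgG hearts and 566, 569 and 563 CPM in Sham hearts. Its groups of infarcted hearts also lay wholly below Sham, with log2 fold changes of -0.35 ± 0.06 in MI+FG-3149 over Sham (edgeR adjusted p = 0.000354) and -0.38 ± 0.06 in MI+IgG over Sham (edgeR adjusted p = 0.000108). Sdhb, the iron-sulphur subunit, was lower in MI+IgG (-0.23 ± 0.06) and did not pass the test in MI+FG-3149 (-0.14 ± 0.06). In the last exon of Sdhb all MI+FG-3149 libraries lay below all Sham libraries (log2 ratio of means -0.20). Sdhd, the other anchor, passed neither test, at -0.14 ± 0.07 and -0.16 ± 0.07.

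Of the 9 members of complex III, 3 fell in MI+FG-3149 against Sham and 8 in MI+IgG against Sham. Uqcrb, a small subunit near the ubiquinone site, was measured at 465, 469, 527, 503 and 479.9 CPM in MI+FG-3149 hearts, 487, 419, 462, 445 and 435 CPM in MI+IgG hearts and 555, 589 and 576 CPM in Sham hearts. Uqcrc1, a core subunit facing the matrix, was measured at 1280.4, 1215, 1358, 1267 and 1283 CPM in MI+FG-3149 hearts, 1258, 1112, 1233, 1125 and 1169.7 CPM in MI+IgG hearts and 1478, 1475 and 1487 CPM in Sham hearts. For both genes the infarcted hearts of either group lay below all Sham hearts. Uqcrb changed by -0.23 ± 0.06 in MI+FG-3149 over Sham (edgeR adjusted p = 0.00531) and by -0.35 ± 0.06 in MI+IgG over Sham (edgeR adjusted p = 0.00012), on the log2 scale. Uqcrc1 changed by -0.21 ± 0.05 (edgeR adjusted p = 0.00673) and -0.33 ± 0.05 (edgeR adjusted p = 0.00013) in the same contrasts. Uqcrc2, the other core subunit, was the third that fell in both, at -0.18 ± 0.06 and -0.21 ± 0.06. Cyc1, the cytochrome c1 that reduces cytochrome c, the hinge protein Uqcrh and the small subunits Uqcr10 and Uqcrq were lower in MI+IgG alone by the threshold, with log2 fold changes of -0.19, -0.22, -0.17 and -0.17. In MI+FG-3149 over Sham the same 4 genes had values of -0.03, -0.13, -0.04 and -0.03, which did not pass. In their last exons, however, all MI+FG-3149 libraries lay below all Sham libraries, where 24.6% of genes did. The log2 ratios of means there were -0.33, -0.45, -0.23 and -0.11, beside -0.31, -0.35, -0.21 and -0.22 in MI+IgG over Sham. Uqcr11, the smallest subunit, passed in neither contrast (-0.01 and -0.12).

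Cycs, the soluble carrier between complexes III and IV that also takes part in apoptosis when released, was counted at 1002, 913, 1241, 1103 and 1036 CPM in MI+FG-3149 hearts, 1119, 909, 1064, 967 and 1078 CPM in MI+IgG hearts and 1527, 1378 and 1307 CPM in Sham hearts. The highest infarcted heart lay below the lowest Sham heart. Cycs fell at -0.41 ± 0.09 on the log2 scale in MI+FG-3149 (edgeR adjusted p = 0.00229) and -0.45 ± 0.09 in MI+IgG (edgeR adjusted p = 0.000756), each against Sham.

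Complex IV was the class with members in both directions. Of its 16 tested members 8 were lower and 2 higher in MI+FG-3149 against Sham, and 11 were lower and 1 higher in MI+IgG against Sham. Cox7a1, the muscle form of subunit 7a, stood at 590.4, 526, 599, 587 and 514 CPM in MI+FG-3149 hearts, 577, 475, 544, 479 and 481 CPM in MI+IgG hearts and 689.8, 744 and 746 CPM in Sham hearts. Cox7a2, the widely expressed form of the same subunit, stood at 366, 382, 436, 391 and 365 CPM in MI+FG-3149 hearts, 365, 318, 356, 339 and 349 CPM in MI+IgG hearts and 464, 456 and 474 CPM in Sham hearts. Both genes were lower in all infarcted hearts than in any Sham heart. The log2 fold changes of Cox7a1 were -0.37 ± 0.07 in MI+FG-3149 over Sham (edgeR adjusted p = 0.000891) and -0.51 ± 0.07 in MI+IgG over Sham (edgeR adjusted p = 3.08e-05). Those of Cox7a2 were -0.26 ± 0.06 (edgeR adjusted p = 0.00351) and -0.43 ± 0.06 (edgeR adjusted p = 3.47e-05).

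Cox4i1 was counted at 1366, 1368, 1622, 1554 and 1476 CPM in MI+FG-3149 hearts, 1446, 1257, 1388, 1338 and 1347 CPM in MI+IgG hearts and 1717, 1781 and 1756 CPM in Sham hearts. Cox4i2, an alternative form of subunit 4 known from lung and from oxygen-poor cells, was far less abundant at 8.63, 7.56, 7.73, 5.21 and 6.99 CPM in MI+FG-3149 hearts, 9.66, 9.29, 6.42, 9.25 and 7.22 CPM in MI+IgG hearts and 10.5, 10.9 and 9.7 CPM in Sham hearts. Both genes lay below Sham in every infarcted heart. Cox4i1 fell in both contrasts, at -0.25 ± 0.06 in MI+FG-3149 (edgeR adjusted p = 0.00603) and -0.37 ± 0.06 in MI+IgG (edgeR adjusted p = 0.000164). Cox4i2 fell in MI+FG-3149 at -0.52 ± 0.15 (edgeR adjusted p = 0.0163), and its -0.31 ± 0.15 in MI+IgG did not pass (edgeR adjusted p = 0.117). The call of Cox4i2 in MI+FG-3149 was lost without Sham replicate 1 (-0.51 ± 0.18), without Sham replicate 2 (-0.48 ± 0.18) and without MI+FG-3149 replicates 4 and 5 (-0.38 ± 0.16). Cox6a2 had 1187, 1189, 1319, 1177 and 1184 CPM in MI+FG-3149 hearts, 1228, 1139, 1133, 1133 and 1021 CPM in MI+IgG hearts and 1354, 1505 and 1371 CPM in Sham hearts. Cox6a1, its widely expressed counterpart, had 69.2, 71.2, 86.3, 75.6 and 67.8 CPM in MI+FG-3149 hearts, 61.6, 67.9, 70.9, 67.6 and 61.2 CPM in MI+IgG hearts and 62.2, 64.6 and 66.8 CPM in Sham hearts. Cox6a2 was lower than Sham in all infarcted hearts, while Cox6a1 in MI+IgG overlapped with Sham and in MI+FG-3149 lay above it. In the last exon of Cox6a1, MI+FG-3149 and Sham overlapped (log2 ratio of means 0.03). In its first exon all MI+FG-3149 libraries lay above all Sham libraries (1.62). Cox6a2 fell at -0.22 ± 0.06 in MI+FG-3149 (edgeR adjusted p = 0.0114) and -0.32 ± 0.06 in MI+IgG (edgeR adjusted p = 0.000575), and Cox6a1 did not pass, at 0.20 ± 0.07 (edgeR adjusted p = 0.0543) and 0.03 ± 0.07 (edgeR adjusted p = 0.789).

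Cox8a, the widely expressed form of subunit 8, was the member that rose in both contrasts. Its levels were 122, 136, 140.5, 125 and 132 CPM in MI+FG-3149 hearts, 91.7, 104, 124, 112 and 115 CPM in MI+IgG hearts and 91.1, 86.7 and 92.7 CPM in Sham hearts. All MI+FG-3149 hearts lay above all Sham hearts, and 1 MI+IgG heart fell within the Sham range. The log2 fold changes were 0.54 ± 0.08 in MI+FG-3149 over Sham (edgeR adjusted p = 7.52e-05) and 0.28 ± 0.08 in MI+IgG over Sham (edgeR adjusted p = 0.00847). In counts of the 3′ side they were 0.48 ± 0.07 and 0.30 ± 0.07, and both still passed. The call in MI+IgG was lost without Sham replicate 2, at 0.25 ± 0.09 (edgeR adjusted p = 0.050), without MI+IgG replicates 4 and 5, at 0.24 ± 0.09 (edgeR adjusted p = 0.0508), and with the GC trend removed, at 0.12 ± 0.07 (edgeR adjusted p = 0.197). Cox8b, the muscle form of the subunit in rodents, had 443, 455, 479, 452 and 420.1 CPM in MI+FG-3149 hearts, 414, 406, 431, 386 and 377 CPM in MI+IgG hearts and 460.0, 481 and 484 CPM in Sham hearts. Its MI+IgG hearts all lay below Sham, and its MI+FG-3149 hearts overlapped with Sham. Cox8b fell in MI+IgG at -0.24 ± 0.05 (edgeR adjusted p = 0.00259), and its value in MI+FG-3149 was -0.08 ± 0.05 (edgeR adjusted p = 0.295). From exons of the 3′ side, Cox8b also fell in MI+FG-3149 at -0.30 ± 0.07 (edgeR adjusted p = 0.00485).

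Among the other complex IV members Cox6c, Cox7b and Cox7c, small subunits around the catalytic core, fell in both contrasts, at -0.23, -0.34 and -0.18 in MI+FG-3149 over Sham and -0.31, -0.40 and -0.34 in MI+IgG over Sham. Cox6b1, which faces the intermembrane space, fell in MI+IgG at -0.16 and was at -0.06 in MI+FG-3149, which did not pass. In the last exon of Cox6b1 all MI+FG-3149 libraries lay below all Sham libraries (log2 ratio of means -0.27). Cox6b2 fell in MI+IgG at -1.20 ± 0.32, from CPM values of about 1. Cox7a2l, which takes part in joining complexes III and IV, had values of 0.12 ± 0.05 in MI+FG-3149 and 0.12 ± 0.05 in MI+IgG, which did not pass, although in both groups all hearts lay above Sham. Cox7a2l did pass in MI+FG-3149 against Sham from exons of the 3′ side (0.16 ± 0.06, edgeR adjusted p = 0.0424), and in MI+IgG against Sham in the 3 fits of RPKM values.

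Of the 17 complex V members 12 fell in MI+FG-3149 against Sham and 14 in MI+IgG against Sham, with none higher. Atp5j, coupling factor 6 of the peripheral stalk, stood at 659, 627, 734, 668 and 684 CPM in MI+FG-3149 hearts, 659, 569.7, 654, 603 and 604 CPM in MI+IgG hearts and 798, 814 and 819.9 CPM in Sham hearts. Atp5e, the epsilon subunit of the central stalk, stood at 382, 386, 442, 372 and 351 CPM in MI+FG-3149 hearts, 382, 321, 348, 328 and 303 CPM in MI+IgG hearts and 482, 464 and 465 CPM in Sham hearts. For both genes all infarcted hearts were below all Sham hearts. Atp5j changed by -0.27 ± 0.06 in MI+FG-3149 over Sham (edgeR adjusted p = 0.00239) and -0.39 ± 0.06 in MI+IgG over Sham (edgeR adjusted p = 5.68e-05). Atp5e changed by -0.28 ± 0.07 (edgeR adjusted p = 0.00686) and -0.48 ± 0.07 (edgeR adjusted p = 6.18e-05) in the same contrasts. The catalytic pair Atp5a1 and Atp5b fell at -0.22 and -0.22 in MI+FG-3149 and at -0.32 and -0.31 in MI+IgG. Atp5c1, the gamma subunit that turns inside them, was at -0.30 and -0.35. The 3 genes for the same membrane ring subunit, Atp5g1, Atp5g2 and Atp5g3, fell at -0.20, -0.21 and -0.19 in MI+FG-3149 and at -0.29, -0.26 and -0.33 in MI+IgG. The stalk subunits Atp5f1, Atp5h and Atp5o and the membrane subunit Atp5l also fell in both contrasts, with log2 fold changes between -0.38 and -0.25 in MI+FG-3149 and between -0.44 and -0.29 in MI+IgG. Atp5j2, a membrane subunit, and Atp5sl fell in MI+IgG only by the threshold, at -0.18 and -0.18. In the last exon of Atp5j2 all MI+FG-3149 libraries lay below all Sham libraries (log2 ratio of means -0.25). That of Atp5sl overlapped (-0.13). Atp5k, another membrane subunit, Atp5s and Atp5d passed in neither contrast with Sham.

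**Figure D3:**
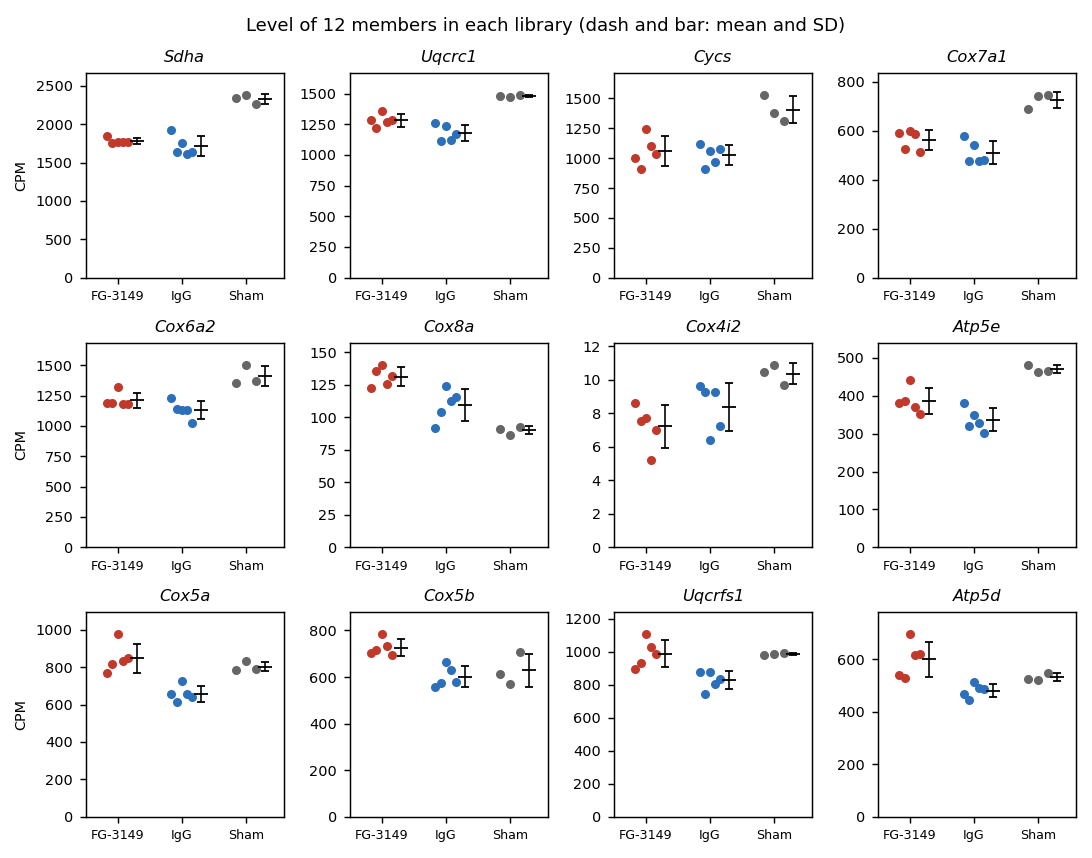
CPM (y axis, from 0) of 12 members in each library of MI+FG-3149 (n = 5), MI+IgG (n = 5) and Sham (n = 3), with the mean and SD of each group to the right of its points. Sdha, Uqcrc1, Cycs, Cox7a1 and Atp5e are lower in all infarcted hearts than in Sham, Cox8a is higher in MI+FG-3149 than in Sham, and Cox5a, Cox5b, Uqcrfs1 and Atp5d are higher in all MI+FG-3149 hearts than in all MI+IgG hearts.

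The contrast of MI+FG-3149 with MI+IgG asks how antibody treatment bears on the infarcted heart. At gene level 4 of 47 members were higher and 0 lower, where 0.916% of tested genes were higher and 0.156% lower. At an unadjusted p under 0.05, 23 members passed, where 13.8% of tested genes did. DESeq2 called 8 members higher and 0 lower, where it called 1.48% of genes higher and 0.385% lower. The median log2 fold change of the members was 0.10, beside -0.012 over all tested genes, and 45 of 47 values were positive. In 7 members all MI+FG-3149 hearts lay above all MI+IgG hearts, and in 0 all lay below, where 1.9% and 1.24% of tested genes did. Cox5a, a subunit on the matrix side of complex IV (chr9:57521232-57532426, plus strand), had 769, 816, 976, 832 and 847 CPM in MI+FG-3149 hearts, 658, 613, 726, 656 and 639 CPM in MI+IgG hearts and 786, 832 and 789.5 CPM in Sham hearts. Cox5b, a zinc-binding subunit of the same complex (chr1:36691487-36693388, plus strand), had 701, 715, 784, 734 and 693 CPM in MI+FG-3149 hearts, 559, 574, 666, 632 and 579 CPM in MI+IgG hearts and 611, 571 and 708 CPM in Sham hearts. In both, every MI+FG-3149 heart lay above every MI+IgG heart. Atp5d, the delta subunit of the ATP synthase rotor (chr10:80142315-80145818, plus strand), had 539, 530.2, 696, 617 and 619 CPM in MI+FG-3149 hearts, 467, 446, 515, 489 and 488 CPM in MI+IgG hearts and 523, 522 and 549.8 CPM in Sham hearts. Uqcrfs1, the Rieske iron-sulphur protein of complex III (chr13:30540312-30545316, minus strand), had 895, 929.7, 1107, 1027 and 984 CPM in MI+FG-3149 hearts, 879, 746, 876, 807 and 835 CPM in MI+IgG hearts and 980.2, 989 and 994 CPM in Sham hearts. The groups of infarcted hearts were again separate for both genes. Against MI+IgG, the log2 fold change in MI+FG-3149 was 0.37 ± 0.06 for Cox5a (edgeR adjusted p = 0.00417) and 0.27 ± 0.06 for Cox5b (edgeR adjusted p = 0.0404). It was 0.32 ± 0.06 for Atp5d (edgeR adjusted p = 0.0189) and 0.25 ± 0.06 for Uqcrfs1 (edgeR adjusted p = 0.0397). The number of members called higher fell to 1 without MI+IgG replicate 2, MI+FG-3149 replicate 4 or MI+FG-3149 replicate 5, and to 2 without Sham replicate 1, MI+IgG replicate 5 or MI+FG-3149 replicate 3. Without the 5 hearts of lowest Arntl the member called higher was Cox8a alone, at 0.44 ± 0.08 (edgeR adjusted p = 0.0381).

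Set against Sham, all 4 genes had negative log2 fold changes in MI+IgG and values at or above 0 in MI+FG-3149, and they differed in which of these passed the test. Cox5a and Uqcrfs1 were lower in MI+IgG (-0.29 ± 0.07 and -0.25 ± 0.07 on the log2 scale) and did not pass in MI+FG-3149 (0.08 ± 0.07 and 0.00 ± 0.07). Atp5d passed in neither, at 0.17 ± 0.07 and -0.14 ± 0.07. Cox5b was higher in MI+FG-3149 than in Sham at 0.20 ± 0.07 (edgeR adjusted p = 0.0393), although its groups overlapped, and was at -0.07 ± 0.07 in MI+IgG. In its last exon Cox5b was lower in all MI+FG-3149 hearts than in all Sham hearts (log2 ratio of means -0.28). From exons of the 3′ side its value in MI+FG-3149 over Sham was 0.06 ± 0.06 (edgeR adjusted p = 0.533), and with the GC trend removed it was 0.15 ± 0.07 (edgeR adjusted p = 0.123). The Cox5b call was also lost without Sham replicate 1 or 2 or MI+FG-3149 replicate 2, 3 or 4, with values between 0.14 and 0.21.

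The difference between MI+FG-3149 and MI+IgG was larger towards the 5′ end of these 4 transcripts. Exon 1 of Cox5a had 62.9, 87.3, 108, 90.5 and 91.3 CPM in MI+FG-3149 hearts, 11.9, 12, 22.2, 29.7 and 19.8 CPM in MI+IgG hearts and 15.3, 11.7 and 17.8 CPM in Sham hearts. Exon 5 of Cox5a, the last exon, had 137, 134, 156, 125 and 139 CPM in MI+FG-3149 hearts, 157, 142, 164, 132 and 143 CPM in MI+IgG hearts and 208, 215 and 191 CPM in Sham hearts. In exon 1 the MI+FG-3149 libraries stood apart from all others, and in exon 5 they overlapped with MI+IgG while both groups lay below Sham. From exon 1 to exon 5 of Cox5a, the log2 ratio of group means of MI+FG-3149 over MI+IgG was 2.20, 1.06, 0.25, 0.05 and -0.10. Uqcrfs1 had a ratio of 1.99 in exon 1 and 0.10 in exon 2, Atp5d had 1.00 in exon 1 and 0.07 in exon 4, and Cox5b had 0.96 in exon 1 and 0.01 in exon 4.

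First and last exons were compared in the other members too. First exons with a mean count of at least 10 were available for 39 members, and in 38 of them (97.4%) all MI+FG-3149 libraries were above all MI+IgG libraries, where 46.8% of 3117 genes did so. The median log2 ratio of first exons was 1.51 in members and 0.70 in all genes. Of 43 last exons of members, 0 were higher in all MI+FG-3149 libraries than in all MI+IgG libraries, where 0.401% of 8738 genes were, and 1, that of Cox7c, was lower in all, where 2.41% were. The median log2 ratio of last exons was -0.02 in members and -0.06 in all genes. With counts from exons of the 3′ side alone, 0 of 46 members were called by edgeR in MI+FG-3149 against MI+IgG (0.0778% of 12854 genes lower, 0.428% higher). Of the 46, 7 had an unadjusted p under 0.05. The share of all genes on this side is not given, and with whole-gene counts 13.8% of tested genes did. The members' median log2 fold change was 0.03. There the values were 0.13 ± 0.06 for Cox5a, 0.20 ± 0.05 for Cox5b, 0.14 ± 0.06 for Atp5d and 0.15 ± 0.06 for Uqcrfs1. With exons of the 5′ side alone, 23 of 47 members were called higher and 0 lower, where 5.4% of 11193 genes were higher and 0.956% lower. On the 3′ side 36 of the 46 values were positive, and the share over all genes is not given. Read position, from 0 at the 5′ end to 1 at the 3′ end, was taken over 3027 genes. These had a single transcript of several exons and a mean count of at least 500. Among them were 28 members, and Uqcrfs1 and Cox8a were not. The median of these members was 0.547 to 0.559 in MI+FG-3149, 0.574 to 0.599 in MI+IgG and 0.593 to 0.601 in Sham. On this measure all MI+FG-3149 libraries lay nearer the 5′ end than all others, so it cannot be told apart from that group, while MI+IgG and Sham overlapped. Over the 3027 genes the median position was 0.517 to 0.528 in MI+FG-3149, 0.526 to 0.536 in MI+IgG and 0.542 to 0.547 in Sham. There every infarcted library lay nearer the 5′ end than every Sham library. Read position over these genes thus cannot be told apart from the groups in a contrast with Sham.

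**Figure D4:**
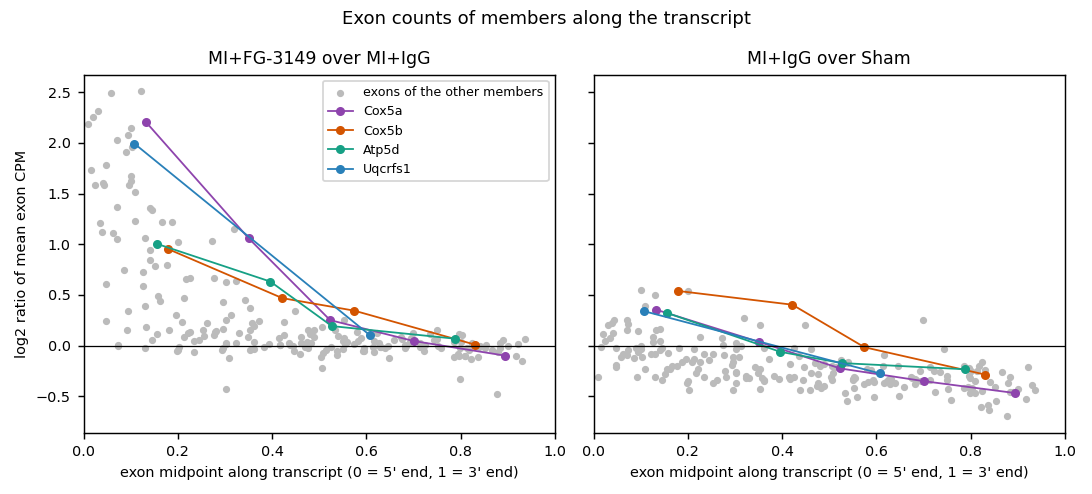
Log2 ratio of mean exon CPM (y axis) against the midpoint of the exon along its transcript (x axis, 0 at the 5′ end), for MI+FG-3149 over MI+IgG (left) and MI+IgG over Sham (right); grey points are exons of the other members with a mean count of at least 10. On the left the ratios are high near the 5′ end (2.20 in exon 1 of Cox5a) and near 0 at the 3′ end (-0.10 in its exon 5); on the right most lie below 0 towards the 3′ end.

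**Figure D5:**
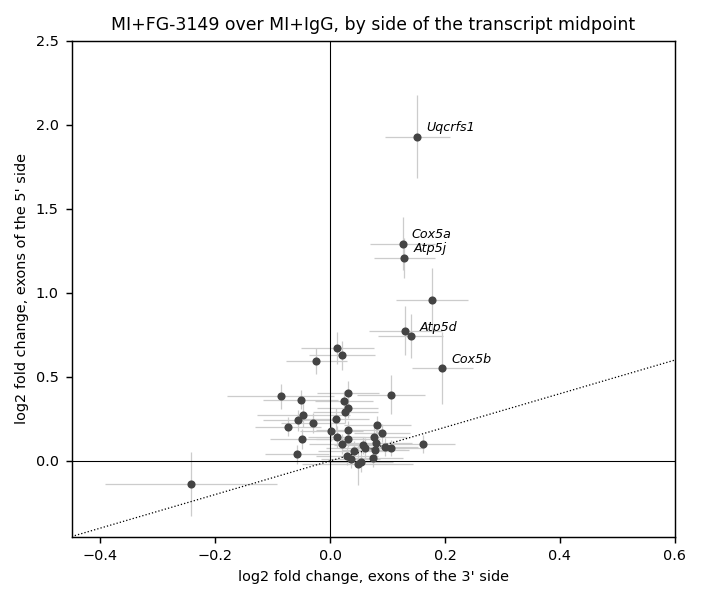
Log2 fold change of MI+FG-3149 over MI+IgG (with SE) for 46 members, fitted on exons of the 3′ side (x axis) and of the 5′ side (y axis); the dotted line marks equal values. Uqcrfs1 and Cox5a lie at 1.93 and 1.29 on the 5′ side and at 0.15 and 0.13 on the 3′ side.

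Shorter transcripts also differed. Over 265 tested genes with transcripts of up to 700 bases the median log2 fold change of MI+FG-3149 over MI+IgG was 0.09, and over the 19 members among them it was 0.14. In genes with transcripts above 4000 bases it was -0.03. With read position as a covariate, 0 members were called higher in MI+FG-3149 against MI+IgG. With the trends over GC content and length removed, 2 were, beside 4 in the main fit, where 0.916% of tested genes were higher. The shares of all tested genes in the other fits are not given, so their counts are not set against them. Beyond these fits the part of read position and length in the gene-level calls was not tested.

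Ratios within a library compared isoforms of the same subunit without any scaling between libraries. Such a ratio does not remove a trend over GC content. GC content was 58.55% in Cox8a and 55.83% in Cox8b, and 58.84% in Cox6a1 and 52.79% in Cox6a2. The part of this trend in the ratios was not tested. The log2 ratio of Cox8b over Cox8a counts was 1.85, 1.75, 1.77, 1.85 and 1.67 in MI+FG-3149 hearts, 2.17, 1.96, 1.80, 1.78 and 1.71 in MI+IgG hearts and 2.34, 2.47 and 2.38 in Sham hearts. All infarcted hearts lay below all Sham hearts. The mean was 1.78 ± 0.08 in MI+FG-3149 and 1.88 ± 0.19 in MI+IgG, against 2.40 ± 0.07 in Sham (SD). The log2 ratio of Cox6a2 over Cox6a1 was 4.10, 4.06, 3.93, 3.96 and 4.12 in MI+FG-3149 hearts, 4.32, 4.07, 4.0, 4.07 and 4.06 in MI+IgG hearts and 4.44, 4.54 and 4.36 in Sham hearts. It too was lower in every infarcted heart, with means of 4.04 ± 0.09 in MI+FG-3149 and 4.10 ± 0.12 in MI+IgG, against 4.45 ± 0.09 in Sham (SD). Each of these 4 contrasts with Sham reached p = 0.0357 by exact permutation (2-sided), which is the lowest value possible with 5 and 3 libraries. After Benjamini-Hochberg adjustment over 12 ratio tests each stood at 0.107, so none passed. From that lowest value a contrast with Sham could hardly pass the adjustment, so not passing it says little. MI+FG-3149 and MI+IgG overlapped in both ratios (exact permutation p = 0.325 for Cox8b/Cox8a and 0.381 for Cox6a2/Cox6a1, adjusted 0.434 and 0.457). Restricted to exons of the 3′ side, the differences from Sham were -0.78 in MI+FG-3149 and -0.55 in MI+IgG for Cox8b/Cox8a, and -0.34 and -0.31 for Cox6a2/Cox6a1.

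The other isoform pairs did not separate the groups. The log2 ratio of Cox7a1 over Cox7a2 was 0.69, 0.46, 0.46, 0.59 and 0.49 in MI+FG-3149 hearts, 0.66, 0.58, 0.61, 0.50 and 0.46 in MI+IgG hearts and 0.57, 0.70 and 0.65 in Sham hearts. That of Cox4i2 over Cox4i1 was -7.30, -7.49, -7.70, -8.21 and -7.71 in MI+FG-3149 hearts, -7.22, -7.08, -7.75, -7.17 and -7.54 in MI+IgG hearts and -7.35, -7.35 and -7.49 in Sham hearts. The 3 groups overlapped in both ratios, and the exact permutation p-values lay between 0.135 and 0.786 (0.324 to 0.786 adjusted over the 12 tests).

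Regulators and partners of the chain gave a mixed picture. Of 10 genes of mitochondrial biogenesis, 3 were lower in MI+FG-3149 and 4 in MI+IgG than in Sham, with none higher. Over all tested genes, 13.9% were lower and 15.6% higher in MI+FG-3149 than in Sham, and 15.9% and 17.8% in MI+IgG. Ppargc1a, the coactivator of NRF1 and the oestrogen-related receptors, fell at -0.35 ± 0.08 in MI+FG-3149 (edgeR adjusted p = 0.00471) and -0.39 ± 0.08 in MI+IgG (edgeR adjusted p = 0.00146), on the log2 scale. Gabpa fell in both contrasts at -0.34 and -0.27, and Esrra, an oestrogen-related receptor, fell in MI+IgG at -0.17 and was at -0.08 in MI+FG-3149. None of the 10 passed in MI+FG-3149 against MI+IgG by edgeR, and 1 had an unadjusted p under 0.05, where 13.8% of tested genes did. Of 15 genes for other mitochondrial proteins (import, porins, chaperones), 3 were lower and 1 higher in MI+FG-3149 than in Sham, and 6 were lower and 0 higher in MI+IgG. Vdac3, a porin of the outer membrane, fell at -0.29 in MI+FG-3149 and -0.32 in MI+IgG, and Hspd1, a matrix chaperone, at -0.21 and -0.28.

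Assembly factors are given by their counts, from a small list. Of 16 tested assembly factors of complex IV, 2 were lower and 4 higher in MI+FG-3149 than in Sham, and 4 were lower and 1 higher in MI+IgG, where 13.9% and 15.6% of all tested genes were lower and higher in MI+FG-3149 and 15.9% and 17.8% in MI+IgG. Cox19, a copper-handling factor, rose by 0.53 ± 0.08 in MI+FG-3149 (edgeR adjusted p = 9.35e-05) and 0.56 ± 0.08 in MI+IgG (edgeR adjusted p = 3.09e-05). Lrpprc, which stabilises mitochondrial messenger RNA, fell at -0.21 and -0.31. Ttc19 and Lyrm7, both of complex III assembly, fell in MI+FG-3149 at -0.29 and -0.32 and in MI+IgG at -0.33 and -0.24. The complex II factors Sdhaf1 and Sdhaf2 passed in no contrast. Atpif1, the inhibitor of ATP hydrolysis by complex V, rose by 0.59 ± 0.09 in MI+FG-3149 (edgeR adjusted p = 0.000193) and 0.52 ± 0.09 in MI+IgG (edgeR adjusted p = 0.000327), while Atpaf1, which chaperones the beta subunit, fell in MI+IgG at -0.24 and was at -0.05 in MI+FG-3149. Usmg5 and Ndufa4, subunits of complexes V and IV whose symbols the rule does not match, fell like most members, at -0.30 and -0.24 in MI+FG-3149 and -0.42 and -0.30 in MI+IgG. The 35 Nduf genes of complex I had 13 lower in MI+FG-3149 and 24 lower in MI+IgG than in Sham, with none higher. Of them 3 were higher in MI+FG-3149 than in MI+IgG, where 0.916% of tested genes were.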

How the data were processed

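Gene and exon tables hold the authors' estimated counts, not normalized; of gene values other than 0, 79.4% were whole to within 0.01. The deposited RPKM values, for 29163 RefSeq transcripts, are per the file headers reads scaled by the authors to transcript length and library total. Per the submitters' processing notes the genome build was mm10; aligner, counter, strand setting and treatment of reads with several matches are not given in the sources used here, so values of genes with processed pseudogenes or overlapping genes are uncertain to that extent. Gene entries repeating a symbol (379) were left out. Counts were rounded, filtered with filterByExpr (13434 genes kept), scaled with TMM factors and fitted over all 13 libraries with no covariate, by edgeR 4.0.16 (quasi-likelihood, robust) in R 4.3.3, with adjusted p under 0.05. CPM use TMM factors. Isoform ratios used counts with 0.5 added and exact permutation tests. Exons were assigned to the 5′ or 3′ side of the transcript by exon midpoint. The members and gene lists were chosen with earlier results of these data known.

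Values in every library are given for the 2 members of each class with the smallest p in MI+IgG against Sham, the isoform pairs, members called in MI+FG-3149 against MI+IgG, and members called against the majority; other genes come from fixed lists, up to 3 of each by smallest p. Alternatives covered RLE and upper quartile scaling, no filter, DESeq2 1.42.0, limma 3.58.1 (voom, and log2 RPKM with a pseudocount of 1 or 0.1), a replicate block, left-out libraries, transcript sides, leaving out the hearts of low Arntl, GC and length trends and read position; the last 4 kinds were chosen after seeing the data. The edgeR step was tested on simulated data. Promoter motifs were chosen after seeing the data, and a shortened form of the NRF1 motif replaced a longer one that had been searched first.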

Additional observations from a re-analysis of the deposited data

Results flagged for a closer look

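Within groups of 5 hearts, a value was singled out when its gap to the nearest other value exceeded Dixon's 95% limit of the group's range. This held for 7 of 102 groups checked, where chance gives about 1 in 20. Sdha stood at 1844 CPM in MI+FG-3149 replicate 1, above the others at 1752 to 1774 CPM. In MI+FG-3149 replicate 3, Cyc1 stood at 1132 CPM (others 969 to 1001 CPM), Cox6a2 at 1319 CPM (others 1177 to 1189 CPM), Cox6c at 880.7 CPM (others 749.7 to 786 CPM) and Atp5k at 419.5 CPM (others 327 to 347 CPM). Cox6b1 stood at 707.7 CPM in MI+IgG replicate 3 (others 659 to 673 CPM). The log2 ratio of Cox6a2 over Cox6a1 was 4.32 in MI+IgG replicate 1 (others 4.0 to 4.07), nearest to Sham. All 7 values were the highest of their group. MI+FG-3149 replicate 3, which gave most of them, also had the highest Rn45s share (2.86%). Among adipocyte markers, Cfd (29.8 CPM) and Cidec (3.64 CPM) stood there above the other MI+FG-3149 libraries. Cidea (37.0 CPM) and Fabp4 (573 CPM) lay within their range. Any link of these traits with the flagged values was not tested.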

How the results depend on the processing

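Of 1767 values of single genes under other settings, 1617 stayed on their side of the threshold, 107 no longer passed, 35 newly passed and 8 reversed direction. A reversal was counted only where the value passed in the main fit or the other fit. The 1617 can therefore hold values that changed sign without passing in either. Without single libraries, members called lower numbered 20 to 28 in MI+FG-3149 against Sham, 31 to 39 in MI+IgG against Sham and 0 in MI+FG-3149 against MI+IgG; members called higher numbered 1 to 4, 0 to 1 and 1 to 5. Counts below without a share of genes beside them are not set against all tested genes. Members higher in MI+FG-3149 against MI+IgG were 4 in the main analysis (0.916% of tested genes) and 8 by DESeq2 (1.48%). They were 0 from 3′-side exons (0.428%) and 23 from 5′-side exons (5.4%). They were 2 with only these groups fitted and 1 by log2(RPKM + 1) without a filter. They were 1 without MI+FG-3149 replicates 4 and 5 and 1 without MI+IgG replicates 4 and 5. With the GC trend or the GC and length trend removed they were 2, and with read position as a covariate 0. Members higher in MI+FG-3149 against Sham were 1 by log2(RPKM + 1) without a filter, 1 without MI+FG-3149 replicates 4 and 5, 13 from 5′-side exons (15 lower), 1 with either trend removed and 0 with read position (0 lower). Members higher in MI+IgG against Sham were 2 in each of the 3 RPKM settings, 0 without MI+IgG replicates 4 and 5, 0 from 5′-side exons, 0 with either trend removed and 0 with read position (1 lower). Median read position over 3027 genes was 0.517 to 0.528 in MI+FG-3149, 0.526 to 0.536 in MI+IgG and 0.542 to 0.547 in Sham. It set every infarcted library apart from every Sham library, so it cannot be told apart from the groups in these contrasts. With it as a covariate, 632 genes were called in MI+IgG against Sham and 2 in MI+FG-3149 against Sham. Removing the GC trend gave 2457 lower and 1497 higher genes in MI+FG-3149 against Sham, beside 1861 and 2098. From 5′-side exons, log2 fold changes reversed for Atp5j (1.41) and Cox7a1 (0.26) in MI+FG-3149 against Sham and for Atp5j (0.20) and Uqcrfs1 (0.25) in MI+IgG against Sham; with read position, Sdhc (0.0073), Atp5e (0.068), Cox6a2 (0.054) and Cox4i2 (0.29) reversed in MI+FG-3149 against Sham. In MI+FG-3149 against MI+IgG, 5′-side exons turned the Cox7a1/Cox7a2 ratio to 0.39 and brought Cox8b/Cox8a to -0.66, past the threshold; the cause was not tested. Leaving out single libraries kept the Cox8b/Cox8a difference at -0.65 to -0.58 in MI+FG-3149 and -0.58 to -0.47 in MI+IgG against Sham. With the replicate number as a block, 25 members were lower and 3 higher in MI+FG-3149 against Sham (12.4% and 14.2% of tested genes). In MI+IgG against Sham 37 and 1 were (14.4% and 16.4%), and in MI+FG-3149 against MI+IgG 0 and 6 were. Same-numbered libraries were not shown to be paired: over 11 pairs the correlations of deviations ran from -0.042 to 0.178, with 2 over 0.1. Without the 5 infarcted hearts of lowest Arntl, members higher were 1 in MI+FG-3149 against Sham, 0 in MI+IgG against Sham and 1 in MI+FG-3149 against MI+IgG. Low counts limit Cox6b2, Cox4i2 and Cox7b2.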
